A study of Homo sapiens with 12 samples.

Results

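The comparison asks how far nicotine's effect differed between LnCaP and 22RV1, both human prostate cancer lines, and takes the change after nicotine in LnCaP minus the change after nicotine in 22RV1. It uses all 12 of the 12 samples of the series and all 11963 genes measured on the array, each through the probe set with the highest mean. The groups were untreated 22RV1, 22RV1 exposed to 100 µM nicotine tartrate for 24 h, untreated LnCaP, and LnCaP exposed in the same way, with 3 replicates each. Both are established cell lines, so each stands for 1 tumour. The labels name no vehicle for the untreated cells, and do not say whether replicates were separate cultures. For that reason p-values reflect only how far these samples scatter, which may be technical.

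Nicotine acts on nicotinic acetylcholine receptors, ligand-gated cation channels best known from neurons and muscle and also present on epithelial cells. LnCaP cells come from a lymph node metastasis and carry a mutated, androgen-responsive androgen receptor, and 22RV1 cells come from a xenograft that relapsed after castration and also make truncated androgen receptor forms. Prostate epithelium makes and secretes lipids and secretory proteins, and SREBP transcription factors are main regulators of its cholesterol supply. When sterols are scarce, SREBP proteins leave the endoplasmic reticulum, where INSIG proteins otherwise hold them, and switch on the genes of cholesterol and fatty acid synthesis together.

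The values are log2 expression values, so a difference of 1 is a doubling. Samples were compared in same-numbered pairs within a line, with 3 pairs a line, as set for this comparison. Same-numbered samples deviated together from their group means, most clearly those numbered 3. In LnCaP, however, untreated sample 2 correlated more with treated sample 1 (0.27) than with treated sample 2 (0.225). The 4 samples numbered 3, out of 12, stood apart from the rest and held 48.0% of the squared deviations within groups. All results below come from limma with each same-numbered pair as a block. A gene was called at a Benjamini-Hochberg adjusted p under 0.05 over all genes. Of 10 prostate luminal marker genes, 8 were measured, and their mean log2 level lay between 9.70 and 11.07 in every sample. The mean of the leukocyte markers lay between 4.21 and 4.49, at the dim end of the array, and none of the measured markers of basal, neuroendocrine, fibroblast, leukocyte or endothelial cells was called for the difference.

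Sequences upstream of 4 called genes known from sterol metabolism are shown here, with a promoter motif marked. The 4 were picked by name, and LPIN1, a called gene of lipid metabolism, is not shown. That all 4 hold the motif is therefore no result about the called genes. Each run is the 250 bases before the start site in RefSeq's promoter table (GRCh38.p14), read 5′ to 3′ on the gene's strand, and capitals mark the pentamer CCAAT or its reverse complement ATTGG. This pentamer is the recognition core of the factor NF-Y, which is known to work beside SREBP at sterol genes. IDI1 has 3 start sites in the table and the one with most such pentamers is given. The windows end just before the start site.
INSIG1, chr7:155297628-155297877, plus strand: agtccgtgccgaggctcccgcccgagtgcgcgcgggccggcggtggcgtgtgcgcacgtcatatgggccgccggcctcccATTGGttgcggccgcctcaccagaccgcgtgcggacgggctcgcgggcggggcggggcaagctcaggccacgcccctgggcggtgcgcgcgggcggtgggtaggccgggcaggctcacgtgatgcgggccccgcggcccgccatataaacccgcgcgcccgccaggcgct
EBP, chrX:48521558-48521807, plus strand: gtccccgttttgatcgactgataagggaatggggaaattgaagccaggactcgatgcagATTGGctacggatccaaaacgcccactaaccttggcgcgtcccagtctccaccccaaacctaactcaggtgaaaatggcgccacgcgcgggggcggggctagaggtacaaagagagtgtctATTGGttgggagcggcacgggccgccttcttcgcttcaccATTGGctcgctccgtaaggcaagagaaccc
IDI1, chr10:1048887-1049136, minus strand: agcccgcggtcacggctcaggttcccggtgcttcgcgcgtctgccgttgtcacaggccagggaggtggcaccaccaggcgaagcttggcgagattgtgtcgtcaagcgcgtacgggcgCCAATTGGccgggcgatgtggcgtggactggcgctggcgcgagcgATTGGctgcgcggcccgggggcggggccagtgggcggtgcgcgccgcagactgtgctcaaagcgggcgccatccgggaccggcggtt
TMEM97, chr17:28318950-28319199, plus strand: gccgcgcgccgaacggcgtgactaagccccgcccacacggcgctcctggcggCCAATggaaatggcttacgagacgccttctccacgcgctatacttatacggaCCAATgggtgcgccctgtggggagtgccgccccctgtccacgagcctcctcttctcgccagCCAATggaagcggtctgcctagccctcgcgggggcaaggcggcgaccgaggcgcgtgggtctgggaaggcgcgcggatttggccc

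The pentamer occurred once upstream of INSIG1, beginning 170 bases before the start site, and 3 times upstream of EBP, at 191, 70 and 30 bases. It occurred 3 times upstream of TMEM97, at 198, 146 and 85 bases. Upstream of IDI1 it was found at 132, 129 and 87 bases, of which the copies at 132 and 129 overlap. Of the 14 cholesterol synthesis genes with a promoter in the table, 13 (92.9%) held it in at least 1 window, against 42.4% of 9563 measured genes and 32.0% of all 35116 windows. Among called genes it stood upstream of 6 of the 10 matched genes whose effect was lower in LnCaP and 3 of the 7 matched genes whose effect was higher. The 6 include INSIG1, EBP, IDI1 and TMEM97. The sterol regulatory element TCACNCCAC, searched on both strands, was in 0 of the 14 cholesterol genes' windows in 1.22% of measured genes and in 0.883% of all windows. The E-box CACGTG was in 1 of the 14 cholesterol genes (7.14%), in 3 of the 10 lower and 1 of the 7 higher called genes, in 10.7% of measured genes and in 6.34% of all windows. These shares describe the windows and say nothing of which factor binds there.

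In all, 19 of 11963 genes (0.159%) were called for the difference, 11 with an effect lower in LnCaP than in 22RV1 (0.092%) and 8 with a higher one (0.0669%). Of the genes on the lipid lists, EBP and IDI1 (cholesterol synthesis) and INSIG1 (sterol sensing) fell in LnCaP, and PLA2G2A and PLAAT3 (phospholipases) rose. The called genes TMEM97 and LPIN1, on none of the lists, also act in lipid metabolism and fell in LnCaP. DDC, an enzyme of dopamine and serotonin synthesis, and ADRA2A, an adrenergic receptor, rose in LnCaP. In LnCaP, where 645 genes (5.39%) were called for nicotine, all 19 passed, with 8 rises and 11 falls. In 22RV1 no gene was called for nicotine (0%). The smallest adjusted p there was 0.0791, with 1351 genes under 0.05 before adjustment, and the adjusted p of the 19 ranged from 0.158 to 0.865. The direction in 22RV1 is therefore given as values, and only the difference and the LnCaP change passed a test. The median size of the change was 0.59 in LnCaP and 0.27 in 22RV1 over these genes, and 18 of 19 moved more in LnCaP.

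**Figure D1:**
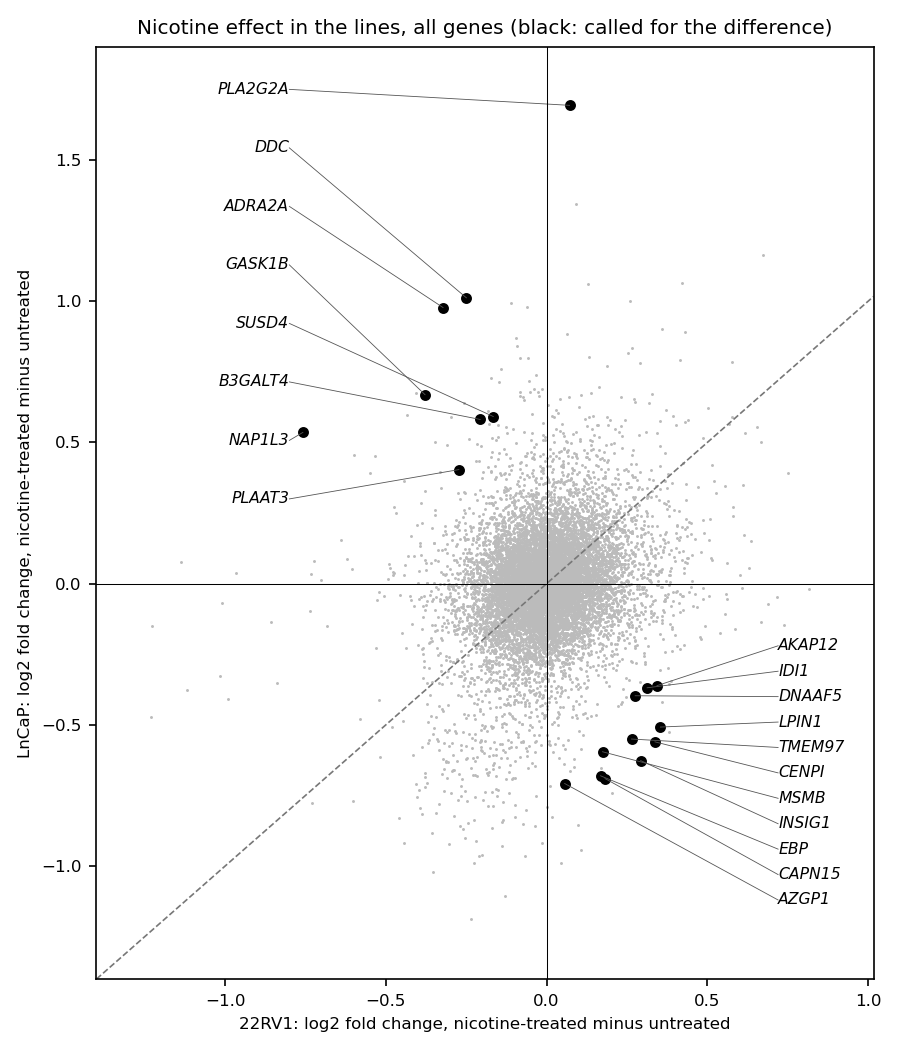
Log2 fold change after nicotine in 22RV1 (x axis) and LnCaP (y axis), both treated minus untreated, for 11963 genes (grey points), with the 19 genes called for the difference in black and named. The dashed line marks equal effects, and 18 of the 19 lie in the quadrants of opposite sign, with PLA2G2A alone at a positive value in both.

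The log2 fold changes of 18 of the 19 genes had opposite signs in the lines, and 17 were opposite in every pair, meaning that all 3 pairs of a line moved one way and all 3 pairs of the other line the other way. Over all genes 43.6% had opposite signs, and 616 (5.15%) were opposite in every pair, with 314 up in 22RV1 and down in LnCaP (2.62%) and 302 the other way (2.52%). A call for the difference favours genes with opposite effects, so the count of 17 restates the call and is no separate test. The exceptions were PLA2G2A and AZGP1, whose 22RV1 pairs were of mixed sign. In 8 of the 19 genes at least 1 pair of 22RV1 changed by less than 0.1. The untreated and treated groups did not overlap for 15 of the 19 genes in LnCaP (17.2% of all genes) and for 4 in 22RV1 (11.9% of all genes). The sample with number 3 often lay at another level in both groups of a line, which the pairing takes out.

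**Figure D2:**
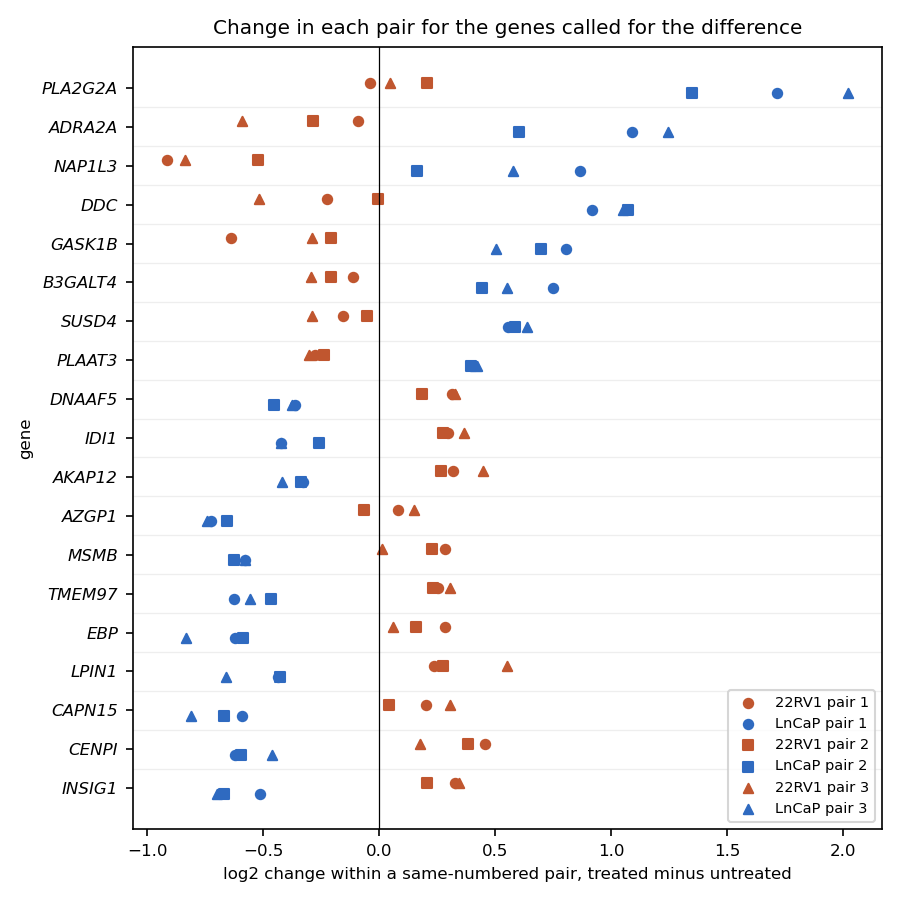
Log2 change, treated minus untreated, in each same-numbered pair (symbols) of 22RV1 (orange) and LnCaP (blue) for the 19 called genes, ordered by the difference of effects. The colours lie on opposite sides of 0 in every pair for 17 genes; DDC in 22RV1 pair 2 (-0.0061) and MSMB in pair 3 (0.011) lie almost on it.

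INSIG1 encodes the membrane protein that holds the SREBP complex in the endoplasmic reticulum, and is itself an SREBP target. INSIG1 read 11.61, 11.25 and 11.67 in untreated and 11.94, 11.46 and 12.01 in treated 22RV1 samples. For INSIG1 in LnCaP, the values were 11.38, 11.13 and 11.15 untreated and 10.87, 10.47 and 10.45 treated. Treated LnCaP samples lay below every untreated one, while the 22RV1 groups overlapped although each pair was higher after treatment. The log2 fold change was 0.29 ± 0.07 in 22RV1 and -0.63 ± 0.07 in LnCaP (SE, n = 3 per group). The difference was -0.92 ± 0.10 (limma adjusted p = 0.0333). EBP encodes the sterol isomerase that shifts a double bond late in cholesterol synthesis. EBP read 11.44, 11.43 and 11.97 in untreated and 11.73, 11.58 and 12.04 in treated 22RV1 samples. For EBP in LnCaP, the values were 10.80, 10.63 and 11.35 untreated and 10.18, 10.04 and 10.51 treated. Each LnCaP pair fell by more than any 22RV1 pair moved, and sample 3 was the highest of its group in all 4 groups. Its changes were 0.17 ± 0.08 in 22RV1 and -0.68 ± 0.08 in LnCaP, with a difference of -0.85 ± 0.11 (adjusted p = 0.0426).

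IDI1 makes the isoprenoid building block dimethylallyl diphosphate. IDI1 read 11.54, 11.33 and 12.04 in untreated and 11.84, 11.60 and 12.41 in treated 22RV1 samples. For IDI1 in LnCaP, the values were 11.06, 10.78 and 11.30 untreated and 10.64, 10.52 and 10.87 treated. Groups overlapped in both lines, and the shift showed only within pairs, at 0.30, 0.28 and 0.36 in 22RV1 and -0.42, -0.26 and -0.42 in LnCaP. The difference was -0.68 ± 0.10 (adjusted p = 0.0432). The IDI1 probe set carries the array maker's mark for possible cross-hybridisation, as does its other probe set. TMEM97, also known as the sigma-2 receptor, is a sterol-responsive membrane protein that binds the cholesterol transporter NPC1. TMEM97 read 10.71, 10.73 and 11.23 in untreated and 10.97, 10.97 and 11.53 in treated 22RV1 samples. For TMEM97 in LnCaP, the values were 11.32, 11.10 and 11.26 untreated and 10.70, 10.64 and 10.71 treated. The lines exchanged rank: untreated LnCaP was on average 0.34 above untreated 22RV1, and after nicotine the gap was -0.48. The TMEM97 difference was -0.81 ± 0.10 (adjusted p = 0.0419).

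LPIN1 encodes lipin, which removes phosphate from phosphatidic acid on the way to triglycerides and phospholipids. LPIN1 read 9.58, 9.41 and 9.57 in untreated and 9.82, 9.68 and 10.12 in treated 22RV1 samples. For LPIN1 in LnCaP, the values were 9.82, 9.84 and 10.37 untreated and 9.38, 9.41 and 9.71 treated. Treated and untreated samples of LPIN1 did not overlap in either line. Its changes were 0.35 ± 0.09 in 22RV1 and -0.51 ± 0.09 in LnCaP, and the difference -0.86 ± 0.12 (adjusted p = 0.0432). As a linear ratio, LPIN1 stood at 1.28 times its untreated level in 22RV1 and at 0.703 times in LnCaP. All further probe sets of INSIG1, EBP, IDI1, TMEM97 and LPIN1 on the array had a positive value in 22RV1 and a negative one in LnCaP. For INSIG1 these were 0.16 and -0.46 on one and 0.24 and -0.58 on the other.

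**Figure D3:**
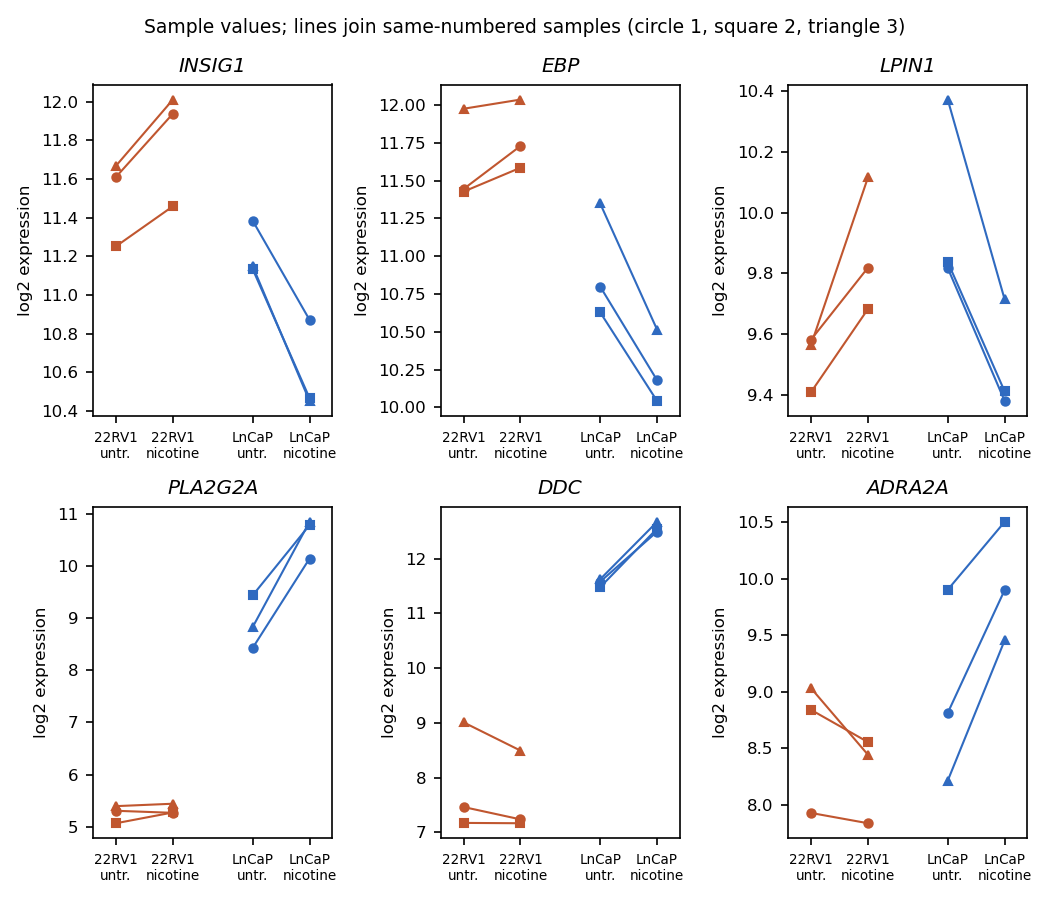
Log2 expression (y axes, a separate scale in each panel) of 6 called genes in every sample, with lines joining the untreated and treated sample of the same number in 22RV1 (orange) and LnCaP (blue). The lines slope in opposite directions for INSIG1, EBP and LPIN1 (up in 22RV1) and for ADRA2A and DDC (up in LnCaP, with DDC pair 2 of 22RV1 almost level), and PLA2G2A rises in LnCaP from a level far above that of 22RV1.

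The list of cholesterol synthesis enzymes showed the same split along the pathway. Of its 20 genes, 16 were measured, and the others are not analysed here. In 22RV1 15 of 16 had positive values (median 0.25) and in LnCaP 13 of 16 had negative ones (median -0.33), against medians over all genes of -0.0071 and -0.0014. Pair by pair, 22RV1 gave list medians of 0.28, 0.22 and 0.24, and LnCaP gave -0.22, -0.23 and -0.50. EBP and IDI1 were called for the difference (0.159% of all genes), 14 of 16 had a negative difference (median -0.65, range -0.91 to 0.24), and 11 were opposite in every pair, all up in 22RV1 (2.62% of all genes). In LnCaP 8 fell (3.28% of all genes) and 1 rose (2.11%), and none was called in 22RV1.

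ACAT2, which condenses acetyl-CoA at the entry of the pathway, was at 0.25 in 22RV1 and fell by 0.55 in LnCaP. The difference of ACAT2 did not pass (adjusted p = 0.0581). The kinase gene MVK fell by 0.31 in LnCaP and was at 0.15 in 22RV1, and the decarboxylase gene MVD was at 0.27 and -0.28 without passing in either line. FDPS, which joins isoprene units, fell by 0.43 in LnCaP and was at 0.22 in 22RV1. SQLE, which encodes squalene epoxidase, had the most negative difference of the list, at -0.91 ± 0.14 (adjusted p = 0.0581, not called). SQLE was at 0.38 in 22RV1 and fell by 0.53 in LnCaP. The cyclase gene LSS was at 0.38 and -0.36, the latter not called (adjusted p = 0.0588).

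Among the enzymes that trim the sterol ring, MSMO1 fell by 0.42 in LnCaP against 0.36 in 22RV1, and DHCR7, the last reductase, fell by 0.40 against 0.25. NSDHL was at 0.18 in 22RV1 and -0.26 in LnCaP (adjusted p = 0.0936 in LnCaP). TM7SF2, a sterol reductase, was the member that rose in LnCaP, by 0.37, and was at 0.13 in 22RV1. HMGCS1, the synthase before the rate-limiting step, varied widely on its brightest probe set (0.55 ± 0.29 in 22RV1 and -0.11 ± 0.29 in LnCaP). Another HMGCS1 probe set was steadier, at 0.38 in 22RV1 and -0.52 in LnCaP, and its difference passed when all probe sets were tested (adjusted p = 0.0344). Of 13 further probe sets for 9 genes of the list, all 13 were positive in 22RV1 and 12 negative in LnCaP, with medians of 0.32 and -0.44. They read the same RNA, so they check the probes and not the samples.

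**Figure D4:**
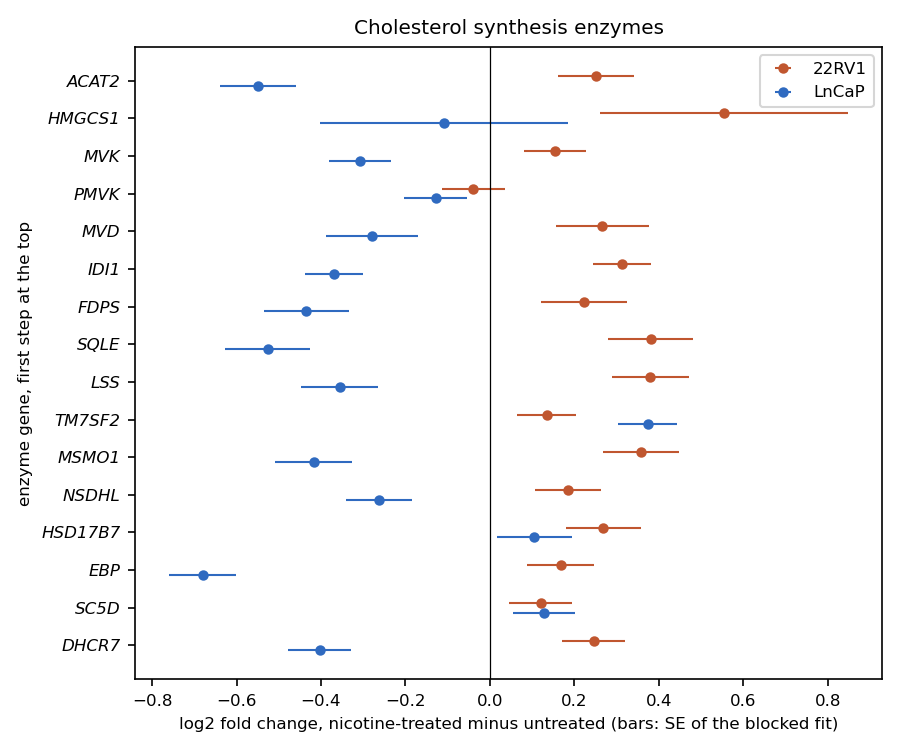
Log2 fold change after nicotine, treated minus untreated, in 22RV1 (orange) and LnCaP (blue) for the 16 measured cholesterol synthesis enzymes in pathway order from top to bottom. Bars are the SE of the blocked fit with 3 samples per group; EBP shows the largest fall in LnCaP (-0.68), and TM7SF2, HSD17B7 and SC5D are positive in both lines.

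Genes that sense, import and export sterols had medians of 0.067 (22RV1) and -0.072 (LnCaP). Of the 16 measured, INSIG1 was called for the difference and opposite in every pair, and no other member was either. SCARB1, the receptor that takes up cholesteryl esters from HDL, fell by 0.54 in LnCaP and was at -0.039 in 22RV1 (difference -0.50 ± 0.12, adjusted p = 0.131). The fatty acid synthesis list held 16 genes, and those without a probe set of 1 gene symbol, such as FADS1, are not covered here. Of its 11 measured genes, 0 were called for the difference, and medians were 0.078 (22RV1) and -0.15 (LnCaP). In LnCaP 4 fell (3.28% of all genes): the synthase gene FASN by 0.65, ELOVL6, which lengthens fatty acids, by 0.46, and the desaturase genes FADS2 and SCD by 0.44 and 0.29. SCD was opposite in every pair (0.22 in 22RV1). FASN had the smallest adjusted p for the difference among the measured genes of the list (-0.82 ± 0.14, adjusted p = 0.0669). FASN's other, dimmer probe set had a difference of -0.044, so its probes disagree on the size.

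PLA2G2A, a secreted phospholipase A2 that frees fatty acids from phospholipids, had the largest difference among the 19 called genes. PLA2G2A read 5.31, 5.07 and 5.39 in untreated and 5.27, 5.27 and 5.44 in treated 22RV1 samples. For PLA2G2A in LnCaP, the values were 8.42, 9.43 and 8.82 untreated and 10.14, 10.78 and 10.84 treated. In 22RV1 the gene lay below the array median in all 6 samples, and in LnCaP every treated sample lay above every untreated one. It rose by 1.69 ± 0.12 in LnCaP, 3.23-fold on a linear scale, against 0.071 ± 0.12 in 22RV1 (difference 1.62 ± 0.16, adjusted p = 0.0333). PLAAT3 is a membrane-bound phospholipase and acyltransferase. PLAAT3 read 8.21, 8.76 and 8.88 in untreated and 7.93, 8.52 and 8.58 in treated 22RV1 samples. For PLAAT3 in LnCaP, the values were 9.39, 9.32 and 8.96 untreated and 9.79, 9.72 and 9.38 treated. The pairs moved by -0.28, -0.24 and -0.30 in 22RV1 and 0.39, 0.40 and 0.42 in LnCaP, although groups overlapped in both lines. Its difference was 0.68 ± 0.09 (adjusted p = 0.0426). These were the 2 called genes among 14 measured phospholipase A2 genes (0.159% of all genes, 0.0669% on the higher side), whose medians were -0.037 (22RV1) and 0.022 (LnCaP).

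DDC decarboxylates L-DOPA to dopamine, and it is known both as a neuroendocrine gene and as an androgen-repressed gene of prostate cells. DDC read 7.46, 7.17 and 9.01 in untreated and 7.24, 7.17 and 8.49 in treated 22RV1 samples. For DDC in LnCaP, the values were 11.58, 11.48 and 11.63 untreated and 12.50, 12.55 and 12.67 treated. LnCaP rose in all 3 pairs by similar amounts, and in 22RV1 sample 3 lay well above samples 1 and 2 whether treated or not. The change was -0.25 ± 0.10 in 22RV1 and 1.01 ± 0.10 in LnCaP, and the difference 1.26 ± 0.14 (adjusted p = 0.0333). A dimmer DDC probe set gave -0.0081 in 22RV1 and 0.16 in LnCaP, so it did not show the rise in that size. ADRA2A encodes the alpha-2A adrenergic receptor, which lowers cAMP. ADRA2A read 7.93, 8.84 and 9.03 in untreated and 7.83, 8.55 and 8.44 in treated 22RV1 samples. For ADRA2A in LnCaP, the values were 8.81, 9.90 and 8.21 untreated and 9.90, 10.50 and 9.45 treated. Groups overlapped in both lines, and replicates spread by more than 1 unit in 3 of the 4 groups, while each LnCaP pair was higher and each 22RV1 pair lower after nicotine. The difference was 1.30 ± 0.18 (adjusted p = 0.0432, and 0.789 without the block).

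The 4 neuroendocrine marker genes, summarised by their mean log2 level, lay between 6.84 and 7.29 in 22RV1 and between 6.05 and 6.38 in LnCaP, with 0 called for the difference and 1 in LnCaP, and their part in the DDC result was not tested.

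Of 15 measured androgen-repressed targets, 6 rose in LnCaP (2.11% of all genes) and 0 fell (3.28%), with medians of 0.05 (22RV1) and 0.39 (LnCaP). DDC was called for the difference. The neuronal protease inhibitor gene SERPINI1 was opposite in every pair (-0.55 and 0.39, difference 0.94 ± 0.15, adjusted p = 0.0599). OPRK1, the kappa opioid receptor gene, rose by 1.06 in LnCaP against 0.13 in 22RV1 (adjusted p of the difference = 0.056). BCHE, which encodes a cholinesterase, rose by 1.00 against 0.26, CAMK2N1 by 0.72 against -0.053, UGT2B17, which inactivates androgens, by 0.59 against 0.39, and the disaccharidase gene SI by 1.17 against 0.67. Of the 6 rises, 4 went with a positive value in 22RV1, and within the list DDC and SERPINI1 were the genes opposite in every pair. Of 21 measured androgen-induced targets, 6 fell (3.28% of all genes) and 2 rose (2.11%) in LnCaP and 0 were called for the difference, with medians of -0.088 (22RV1) and -0.20 (LnCaP). Among those with the smallest p, the prostaglandin dehydrogenase gene HPGD fell by 0.94 in LnCaP (0.11 in 22RV1), STK39 fell by 0.43 (0.051), ACP3, the prostatic acid phosphatase gene, rose by 1.07 (0.42), and the transcription factor gene MAF rose by 0.48 (-0.13). The other MAF probe sets gave 0.037 and -0.049 in LnCaP, so that rise rested on 1 of 3, and HPGD's 4 probe sets ranged from -1.07 to -0.10 there.

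AZGP1 and MSMB encode secreted proteins of the prostate, zinc-alpha-2-glycoprotein and beta-microseminoprotein. AZGP1 read 9.53, 9.52 and 9.28 in untreated and 9.62, 9.46 and 9.44 in treated 22RV1 samples. For AZGP1 in LnCaP, the values were 7.67, 7.70 and 8.15 untreated and 6.95, 7.05 and 7.40 treated. Each LnCaP pair fell by a like amount, and the 22RV1 pairs moved by 0.082, -0.065 and 0.15. The AZGP1 difference was -0.76 ± 0.10 (adjusted p = 0.0426). MSMB read 4.27, 4.21 and 4.17 in untreated and 4.56, 4.44 and 4.18 in treated 22RV1 samples. For MSMB in LnCaP, the values were 4.51, 4.54 and 5.02 untreated and 3.92, 3.91 and 4.44 treated. MSMB lay at the dim end of the array in all samples, and in LnCaP each pair fell while sample 3 stayed above samples 1 and 2. Its difference was -0.77 ± 0.11 (adjusted p = 0.0432), and its other probe set gave -0.78.

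CENPI, a kinetochore component, was the called gene of cell division. CENPI read 5.67, 5.87 and 6.23 in untreated and 6.13, 6.25 and 6.40 in treated 22RV1 samples. For CENPI in LnCaP, the values were 6.93, 6.64 and 6.87 untreated and 6.31, 6.04 and 6.41 treated. In 22RV1 it was higher in each treated sample of a pair, and in LnCaP every treated sample lay below every untreated one. The difference was -0.90 ± 0.11 (adjusted p = 0.0426). The other CENPI probe set fell alike in LnCaP (-0.51) but was at -0.034 in 22RV1, so the opposite direction rested on 1 probe set. AKAP12 encodes a scaffold for protein kinase A. AKAP12 read 8.20, 8.62 and 5.94 in untreated and 8.52, 8.88 and 6.38 in treated 22RV1 samples. For AKAP12 in LnCaP, the values were 5.08, 5.32 and 4.99 untreated and 4.76, 4.98 and 4.57 treated. Sample 3 of 22RV1 lay more than 2 units under samples 1 and 2 in both groups, and without the block the adjusted p was 0.968. With it the difference was -0.70 ± 0.10 (adjusted p = 0.0432).

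DNAAF5 takes part in assembling the dynein arms of cilia. DNAAF5 read 10.19, 10.32 and 10.24 in untreated and 10.50, 10.50 and 10.57 in treated 22RV1 samples. For DNAAF5 in LnCaP, the values were 9.99, 9.97 and 9.98 untreated and 9.63, 9.51 and 9.61 treated. The groups did not overlap in either line, and DNAAF5 had the smallest p for the difference when pairs were ignored. Its difference was -0.67 ± 0.10 (adjusted p = 0.0432, and 0.205 without the block). CAPN15 belongs to the calpain proteases. CAPN15 read 7.52, 7.44 and 7.17 in untreated and 7.72, 7.48 and 7.47 in treated 22RV1 samples. For CAPN15 in LnCaP, the values were 7.20, 7.29 and 7.26 untreated and 6.61, 6.63 and 6.45 treated. Treated LnCaP samples lay at least 0.5 below the untreated ones, and the 22RV1 pairs moved by 0.20, 0.041 and 0.30. The CAPN15 difference was -0.87 ± 0.11 (adjusted p = 0.0426).

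B3GALT4 encodes a galactosyltransferase of ganglioside synthesis. B3GALT4 read 7.44, 7.38 and 7.67 in untreated and 7.33, 7.18 and 7.38 in treated 22RV1 samples. For B3GALT4 in LnCaP, the values were 6.60, 6.89 and 6.93 untreated and 7.35, 7.33 and 7.48 treated. Groups were apart in both lines, though in 22RV1 the lowest untreated and the highest treated value nearly touched. The difference was 0.79 ± 0.11 (adjusted p = 0.0432). Its dimmer probe set showed no such shift, with -0.018 in 22RV1 and -0.059 in LnCaP. GASK1B encodes a Golgi-associated kinase-like protein. GASK1B read 4.80, 3.92 and 4.56 in untreated and 4.16, 3.71 and 4.27 in treated 22RV1 samples. For GASK1B in LnCaP, the values were 9.48, 9.35 and 9.75 untreated and 10.28, 10.05 and 10.25 treated. The lines differed here by about 5 units before treatment (5.10), and the 22RV1 values lay at the dim end of the array. Its difference was 1.05 ± 0.14 (adjusted p = 0.0426).

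SUSD4 encodes a membrane inhibitor of complement. SUSD4 read 4.77, 4.71 and 5.18 in untreated and 4.61, 4.65 and 4.89 in treated 22RV1 samples. For SUSD4 in LnCaP, the values were 6.40, 6.01 and 5.36 untreated and 6.96, 6.60 and 5.99 treated. LnCaP pairs rose by 0.55, 0.59 and 0.64 from quite different starting levels. The SUSD4 difference was 0.76 ± 0.10 (adjusted p = 0.0426). NAP1L3 belongs to the nucleosome assembly proteins. NAP1L3 read 5.72, 6.05 and 6.51 in untreated and 4.81, 5.52 and 5.68 in treated 22RV1 samples. For NAP1L3 in LnCaP, the values were 4.997, 4.91 and 4.87 untreated and 5.86, 5.07 and 5.45 treated. It was the called gene with the largest 22RV1 change, -0.76 ± 0.13, and the only one that moved more in 22RV1 than in LnCaP (0.54 ± 0.13). Its difference was 1.29 ± 0.18 (adjusted p = 0.0432).

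The threshold fell in a close row of genes. The last called genes, IDI1 and B3GALT4, had an adjusted p of 0.0432, and the next, EFCAB11, GPER1, ADAM2, MIPEP and OPRK1, one of 0.056. The rule took the 8 largest differences in each direction among genes opposite in every pair. Besides called genes these were S100P, a calcium-binding protein gene, which fell by 0.74 in LnCaP (0.20 in 22RV1), and SQLE. On the other side MIPEP, a mitochondrial peptidase gene, rose by 0.60 in LnCaP (-0.43 in 22RV1) and RIMS1, known from synaptic vesicle release, rose by 0.73 (-0.17). OSR2, a zinc finger gene, was at -0.53 in 22RV1 and 0.45 in LnCaP, neither called. SERPINI1, at -0.55 and 0.39, was the remaining one and was not called in either line. The 645 genes with a call in LnCaP included 182 whose 22RV1 value had the other sign, namely 92 of 253 rises and 90 of 392 falls. That is 28.2% of them, against 43.6% with opposite signs over all genes. Of these genes, 76 were opposite in every pair (39 rises and 37 falls), against 5.15% of all genes, and a call in LnCaP itself favours pairs that move alike there.

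The gap between the lines was wider after nicotine for 14 of the 19 called genes and narrower for 5, against 55.3% of all genes with a wider gap. PLA2G2A stood 3.64 higher in LnCaP before and 5.26 after nicotine, and AZGP1 went from -1.61 to -2.37. CENPI went the other way, from 0.89 to -0.0054, as did NAP1L3, from -1.17 to 0.13. The gap changed sign for 6 genes. These gaps are built from the same samples as the difference and are given as a description.

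Genes of cell division had mostly negative values in both lines, of unequal size. Of 38 measured G1/S and replication genes, 30 fell in LnCaP (3.28% of all genes), 0 were called in 22RV1, 0 were called for the difference and 0 were opposite in every pair. Their medians were -0.17 (22RV1) and -0.66 (LnCaP), and the pairs of 22RV1 gave -0.022, 0.014 and -0.49, of which only pair 3 was far from 0. The initiation factor gene CDC6 fell by 1.11 in LnCaP against -0.13 in 22RV1, ORC6 of the origin complex by 0.85 against -0.074, GINS1 of the replicative helicase by 0.84 against -0.14 and TYMS, thymidylate synthase, by 0.73 against -0.15. Of 34 measured G2/M genes, 31 fell in LnCaP (3.28% of all genes), 0 were called for the difference and 0 were opposite in every pair, with medians of -0.29 (22RV1) and -0.61 (LnCaP). The mitotic kinase gene AURKB fell by 0.84 against -0.23 (adjusted p of the difference = 0.0913), BUB1B by 0.63 against -0.16, PRC1 by 0.61 against -0.17 and MKI67 by 0.61 against -0.18. This unequal change stands beside the sterol genes' difference in the same samples, and its part in that difference was not tested.

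**Figure D5:**
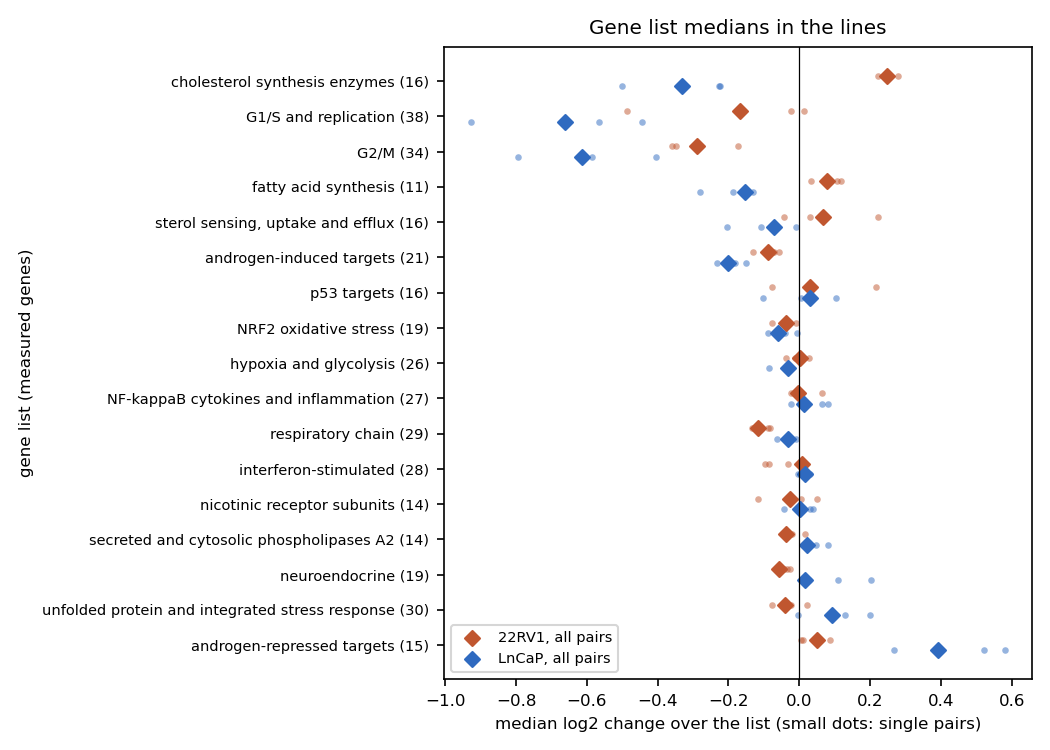
Median log2 change over each gene list (diamonds: all pairs; small dots: single pairs) in 22RV1 (orange) and LnCaP (blue), with the number of measured genes in brackets, ordered by the median difference of effects. Cholesterol synthesis is split around 0 in every pair (medians 0.25 and -0.33), whereas the G1/S and G2/M lists are negative in both lines.

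The stress response list, which joins the unfolded protein and integrated stress responses, had medians of -0.039 (22RV1) and 0.092 (LnCaP). Of its 30 measured genes 0 were called for the difference, 2 rose in LnCaP (2.11% of all genes) and 4 were opposite in every pair, all down in 22RV1 (2.52%). CRELD2, a chaperone-like gene of the endoplasmic reticulum, was at -0.19 in 22RV1 and 0.28 in LnCaP, the chaperone gene CALR at -0.10 and 0.25 and the disulfide isomerase gene PDIA3 at -0.14 and 0.21. SEL1L, which serves protein disposal from that compartment, rose by 0.36 in LnCaP and was at -0.09 in 22RV1. Named after their values were seen, DDIT3, a stress-induced transcription factor gene, was the other rise in LnCaP (0.52, and 0.16 in 22RV1) and ATF6, a stress sensor gene, the other opposite one (-0.083 and 0.11). Another CALR probe set reached 0.55 in LnCaP with a difference of 0.71. Of 29 measured respiratory chain genes 28 had negative values in 22RV1 and 19 in LnCaP, with medians of -0.12 (22RV1) and -0.033 (LnCaP), and 0 were called for any of the contrasts. Their smallest p-values were those of NDUFB8 (-0.22 and 0.0079), NDUFA2 (-0.20 and 0.011), COX7A2 (-0.16 and 0.087) and SDHC (-0.089 and 0.13).

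Of 19 measured neuroendocrine genes, DDC was called for the difference (0.159% of all genes) and 5 rose in LnCaP (2.11%), namely DDC, ENO2 (0.45), CPE (0.45), NTS (0.80) and SYT1 (0.43). In 22RV1 NTS, the neurotensin gene, was at -0.083, SYT1, a sensor of synaptic vesicle release, at -0.084 and CPE, which trims prohormones, at 0.011. The list medians were -0.056 (22RV1) and 0.015 (LnCaP), and CHGA, the chromogranin A gene, was at -0.10 and -0.0072. Of 26 hypoxia and glycolysis genes 0 were called for the difference; the hexokinase gene HK2 fell by 0.62 in LnCaP against 0.037 in 22RV1 (adjusted p of the difference = 0.0813). Of 14 measured nicotinic receptor subunits 0 were called in any contrast and 0 were opposite in every pair. CHRNA5 was at -0.0007 in 22RV1 and -0.33 in LnCaP, and CHRNB1 at -0.017 and 0.37.

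The lists of NF-kappaB and interferon-stimulated genes held no call for the difference. The 27 NF-kappaB genes had medians of -0.0032 (22RV1) and 0.013 (LnCaP) and 0 called in either line; TNFAIP3, a brake on that pathway, was at -0.15 and 0.11 and TNF at -0.014 and 0.15. Among 28 interferon-stimulated genes OAS3, an antiviral synthetase gene, fell by 0.57 in LnCaP against 0.01 in 22RV1 (difference -0.58 ± 0.15, adjusted p = 0.16). The 19 NRF2 genes had medians of -0.037 (22RV1) and -0.059 (LnCaP) and 0 calls, with the quinone reductase gene NQO1 at -0.40 and -0.054. Of 16 p53 targets 0 were called for the difference, while the death receptor gene FAS fell by 0.44 in LnCaP against 0.0028 in 22RV1.

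Testing all 22277 probe sets called 55 for the difference, 24 of them higher and 31 lower in LnCaP than in 22RV1. These probe sets stand for 37 named genes, including all 19 called before, and 12 had no single gene symbol. Those 12 are not named here, and hold the most extreme differences of the 55, from -1.95 to 1.83. The 18 further genes entered by 5 probe sets already in use (EFCAB11, GPER1, ADAM2, MIPEP and OPRK1) and, for 13 genes, by another probe set only. Of the latter, which were named after their values were seen, 3 are of cholesterol synthesis: HMGCS1, SQLE (0.33 in 22RV1 and -0.51 in LnCaP) and DHCR7 (0.32 in 22RV1 and -0.45 in LnCaP). Other probe sets were those of the fibronectin gene FN1 (-0.28 in 22RV1 and 0.47 in LnCaP), the glutaredoxin gene GLRX (-0.54 in 22RV1 and 0.22 in LnCaP), the amino acid transporter gene SLC7A6 (0.51 in 22RV1 and -0.22 in LnCaP), ANXA9 (-0.24 in 22RV1 and 0.62 in LnCaP) and the death receptor gene TNFRSF25 (0.47 in 22RV1 and -0.30 in LnCaP). The last 5 were at OPTN (0.11 in 22RV1 and 1.20 in LnCaP), the iron regulator gene HFE (0.029 in 22RV1 and 0.88 in LnCaP), MAST4 (-0.22 in 22RV1 and 0.65 in LnCaP), GPX3 (-0.61 in 22RV1 and 0.18 in LnCaP) and MEF2C (-0.74 in 22RV1 and 0.14 in LnCaP). Of the 55 probe sets, 42 were opposite in every pair, against 4.91% of all probe sets.

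The count of 19 rested on the pairing and on all 6 pairs. Without the replicate block 0 genes were called (lowest adjusted p = 0.205). Before adjustment 749 genes lay under 0.05, against 1577 with the block, and 15 of the 19 had an unadjusted p under 0.05. The 19 were picked for the same difference in the same samples, so that count is no separate support. Without any single pair, limma called 0 to 3 genes: 0 without pair 1 or pair 3 of 22RV1 or pair 1 of LnCaP, 3 without 22RV1 pair 2, 2 without LnCaP pair 2 and 1 without LnCaP pair 3. Of these calls, 1 of the 3, 1 of the 2 and 0 of the 1 were among the 19, so most were other genes. Without the 4 samples numbered 3 it was 0.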

How the data were processed

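Expression was measured in 12 samples on Affymetrix arrays from biotin-labelled cRNA, per the labels' protocols. The authors deposited log2 values for 22277 probe sets; how they were normalized, and with what software, was not stated in the sources used. Array medians lay between 6.61 and 6.71, the lowest correlation within a group was 0.992, and no arrays were identical. The number of arrays limits the precision (median SE of a difference 0.12).

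Of the probe sets, 19070 had 1 gene symbol in the platform annotation, 1043 had several and 2164 were not listed. Symbols were looked up through the Entrez identifier in RefSeq. For each gene the probe set with the highest mean was used, with no filter.

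A single model over all samples, with 6 block terms, used limma 3.58.1 (lmFit, eBayes; R 4.3.3), leaving 4 residual degrees of freedom. Replicate numbers come from the labels. Deviations of same-numbered samples from their group means correlated over genes by 0.465, 0.454 and 0.64 in 22RV1 and by 0.371, 0.225 and 0.599 in LnCaP, and same-numbered samples were treated as pairs. In LnCaP untreated sample 2 correlated more with treated sample 1 (0.27). Tests were two-sided.

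In data simulated with the measured variances of 11963 genes, 200 of them with opposite effects, the blocked fit recovered differences of 0.5, 1 and 2 log2 units for 32.8%, 76.1% and 100% of genes, with 11 false calls among 150. The fit without the block recovered 11.9%, 65.7% and 93.9%, with 0 false calls among 114. The measured pair effects were built into the simulated data, which favours the blocked fit. The simulation therefore cannot show whether pairing is right for the real samples.

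The comparison, 17 gene lists (368 of 419 symbols measured) and rules were chosen with earlier results of these data known. Named genes were all called genes, the 8 largest differences in each direction among genes opposite in every pair, called or opposite members of the lipid and androgen-repressed lists, and 2 to 4 members with the smallest p of other lists. Alternatives were the fit without the block, a block crossed with treatment, array weights, other moderation, scaling, probe set rules, a filter, and left-out pairs.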

Additional observations from a re-analysis of the deposited data

Results flagged for a closer look

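The test of the difference itself set apart 19 genes, given here as the log2 difference of effects, LnCaP minus 22RV1. Higher in LnCaP were PLA2G2A (1.62), ADRA2A (1.30), NAP1L3 (1.29), DDC (1.26), GASK1B (1.05), B3GALT4 (0.79), SUSD4 (0.76) and PLAAT3 (0.68). Lower in LnCaP were INSIG1 (-0.92), CENPI (-0.90), CAPN15 (-0.87), LPIN1 (-0.86), EBP (-0.85), TMEM97 (-0.81), MSMB (-0.77), AZGP1 (-0.76), AKAP12 (-0.70), IDI1 (-0.68) and DNAAF5 (-0.67).

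Further genes moved one way in all 3 pairs of 22RV1 and the other way in all 3 pairs of LnCaP, without passing the test of the difference. In all, 616 genes were opposite in every pair, 17 of them called, and most of the rest are not listed here. Listed are only those among the 8 largest differences in each direction or on the lipid and androgen-repressed lists. The share of lipid genes below therefore follows from that choice. The listed differences were MIPEP (1.03), OSR2 (0.98), SERPINI1 (0.94) and RIMS1 (0.90) on the higher side. On the lower side they were S100P (-0.94), SQLE (-0.91), ACAT2 (-0.80), MSMO1 (-0.78), LSS (-0.74), FDPS (-0.66), DHCR7 (-0.65), MVD (-0.55), SCD (-0.51), MVK (-0.46) and NSDHL (-0.45). Among the lists, the median was opposite in every pair for neuroendocrine genes (0.11), for fatty acid synthesis (-0.20) and for cholesterol synthesis (-0.65), and these list differences were not tested.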

How the results depend on the processing

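With the replicate block dropped, the count of genes called for the difference went from 19 to 0 and that for nicotine in LnCaP from 645 to 83, and the cause was not tested. With the block crossed with treatment, so that the difference was taken within each number, the counts were 0 and 356; fewer residual degrees of freedom remain in that fit. For the difference, 39 genes were called with array weights, 160 with trended and robust moderation, 31 after quantile normalization, 14 after subtracting array medians (all 14 among the 19), 55 among the 6753 genes above the median of all probe sets, 4 with the probe set of largest variance, 41 with the mean of a gene's probe sets and 0 without the samples numbered 3. The counts of 39, 160 and 31 include all 19 genes. Of the 19, 14 were among the 55 genes above the median, where 14 were tested. The 4 genes by largest variance held 3 of the 19, and the 41 by the mean held 17. The cause of each shift was not tested. Both of the next settings were chosen after seeing the data: all probe sets gave 55, and dropping the block together with the samples numbered 3 gave 0. For nicotine in 22RV1 the count of 0 became 37 with trended and robust moderation and 1 with the mean of probe sets. For LnCaP it became 1087 with that moderation and 179 without the samples numbered 3. Genes opposite in every pair numbered 616, 1787 without the samples numbered 3, where only 2 pairs a line must match, and 1093 among all probe sets. Leaving out a pair gave 0 to 3 genes for the difference, 0 to 2 for 22RV1, 165 to 687 for LnCaP and 924 to 1207 opposite genes. The cholesterol synthesis median of the difference stayed within the spread between pairs under each setting run. Dropping or crossing the block, other moderation and the filter leave its members' fold changes unchanged. The median was therefore bound to stay at -0.65 there, and these settings are no check on it. Among other named genes, NDUFB8 reversed to -0.50 with the probe set of largest variance and to -0.041 with the mean of probe sets, and PLA2G6 reversed to -0.040 with the former. Of the called genes, 5 lie under the median of all probe sets, where signal limits what can be measured.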
